A study of Mus musculus with 8 samples.

Results

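The genes described here are 39 members of the nuclear receptor superfamily, chosen by symbol among the 55341 gene symbols of the count files. They are the superfamily without the thyroid hormone receptors (Thra, Thrb), the retinoid X receptors (Rxra, Rxrb, Rxrg), Esrra and Esrrg. All 39 symbols were found. Of these, 38 had at least 1 read in at least 1 library, and 30 had enough reads for a test between groups. The remaining 9 were too low to test.

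RNA came from sorted nuclei of cortical GABAergic neurons, the inhibitory neurons of the cortex, of juvenile mice in which Cre/loxP recombination had switched on a nuclear fluorescent reporter in these neurons. Each library came from the cortex of 1 mouse. All 8 mice were hypothyroid after propylthiouracil (PTU), a blocker of thyroid hormone synthesis, was given to their mothers in gestation. The PTU group (mice 9 to 12, n = 4) had no further treatment, and the PTU+TH group (mice 13 to 16, n = 4) received thyroid hormone (TH) by intraperitoneal injection 24 h before the brain was taken. Both groups carry the reporter and the hypothyroidism, so the contrast is a day of TH in hypothyroid mice, and mice with normal TH levels are not analysed here. The Cre driver, the hormone form and dose, the exact age, the strain, the sex and the litters are not given in the sources used here. Reads from 4 Y-linked genes numbered 7960 to 11548 in mice 9 to 14 and 0 in mice 15 and 16. By these reads all PTU mice were male, and PTU+TH mice 15 and 16 were female. Sex is thus unbalanced between the groups, and its part in the differences between them was not tested.

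Nuclear receptors are transcription factors that bind DNA through a zinc finger domain and, in many members, a small lipophilic ligand such as a steroid, retinoic acid, an oxysterol or a fatty acid. Many bind repeats of a short half-site on DNA, and the PPARs, retinoic acid receptors, liver X receptors and vitamin D receptor do so as partners of the retinoid X receptors, as the TH receptors also do. In cortical neurons, the members best known for a role are the corticosteroid receptors, the clock receptors of the REV-ERB and ROR subfamilies, the activity-induced NR4A receptors, and the COUP-TFs, which help specify interneurons that arise in the caudal ganglionic eminence.

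Libraries held 21762810 to 29084071 counted reads. Levels are given as CPM, read counts divided by a scaled library total and put on the usual common base. How introns, strand and overlaps were counted is not given in the sources used here, and counting over whole gene bodies is inferred. Of 591 protein-coding genes that lie inside an intron of another gene without touching an exon, 591 were at 0 in every library, beside 21.5% of the 11727 protein-coding genes free of any overlap. Reads in stretches shared by 2 genes are taken as lost to both. Levels of different genes are therefore compared only per length, mainly per kb of gene body outside other genes. The summed levels of all 9 marker lists of cell types overlapped between the groups, among them GABAergic neurons (6 genes, 2448 to 2883 CPM in PTU and 2286 to 2486 in PTU+TH), excitatory neurons (36.4 to 104.1 and 44.5 to 117.9), endothelium (33.5 to 152.3 and 33.5 to 108.5) and microglia (49.9 to 69.4 and 59.5 to 77.1). Dlx1, Gfap and P2ry12 were at 0 in each library, and all of them lie inside other genes.

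A day after TH, 2 of the 30 tested receptors had risen and 0 had fallen (edgeR quasi-likelihood test, adjusted p under 0.05, also called passing below). They were Pparg, which encodes the fatty acid receptor PPAR gamma, and Nr3c1, which encodes the glucocorticoid receptor. Of the 17355 genes tested, 2.12% passed in either direction and 1.49% were higher and 0.634% lower in PTU+TH, against 6.67% of the tested receptors. At an unadjusted p under 0.05 there were 8 receptors (26.7%) beside 12.8% of all genes. The 4 libraries of a group lay entirely above those of the other for 6 receptors (20.0%), 4 of them higher and 2 lower in PTU+TH, beside 8.71% of all genes (4.68% higher, 4.03% lower). The median log2 fold change, PTU+TH over PTU, was 0.09 over the tested receptors and -0.01 over all genes. In bulk RNA of sorted nuclei, a change in the number of cells that express a gene and a change in RNA per cell cannot be told apart.

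**Figure D1:**
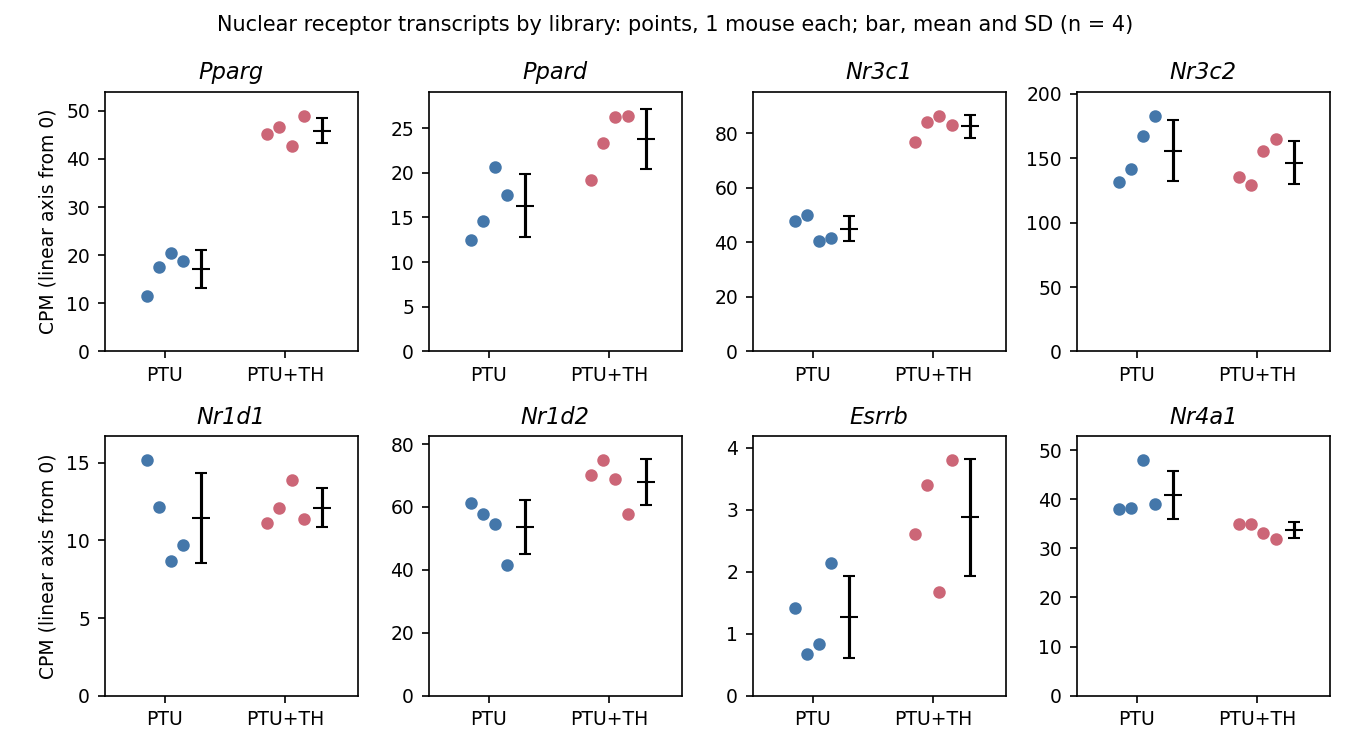
CPM of 8 receptor transcripts (vertical axis, linear from 0) in the PTU and PTU+TH groups, with 1 point per mouse in order of mouse number and a bar for the mean and SD (n = 4). The groups are apart for Pparg, Nr3c1 and, by a smaller margin, Nr4a1, and overlap for Ppard, Nr3c2, Nr1d1, Nr1d2 and Esrrb.

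Among the PPARs, the receptors of fatty acids and their derivatives, Pparg (ENSMUSG00000000440.12, chromosome 6, 115360951 to 115490399 in GRCm38) showed the largest rise. Its level was 11.6, 17.5, 20.5 and 18.9 CPM in PTU mice 9 to 12 and 45.3, 46.6, 42.7 and 49.0 CPM in PTU+TH mice 13 to 16. The lowest PTU+TH library was thus above 2 times the highest PTU library. The mean went from 17.1 ± 3.88 to 45.9 ± 2.65 CPM (SD, n = 4 each), a log2 fold change of 1.43 (SE 0.15, 95% interval 1.1 to 1.75, edgeR adjusted p = 0.000236). The counts behind these values ran from 318 to 465 in PTU and from 939 to 1356 in PTU+TH. The log2 fold change lay between 1.28 and 1.52 under the 20 alternatives run, each of which called the gene, and was 1.43 in the 6 libraries with reads from Y-linked genes (edgeR adjusted p = 0.0187). In the gene body, 89.8% lies outside other genes, and the rest is shared with Gm44079 on the opposite strand.

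RefSeq places 3 starts in Pparg, and a count over the whole gene body does not say which start was used. They are shown because Pparg was the receptor with the largest rise and because the half-site of nuclear receptors, AGGTCA, stands just before 2 of them. The first 2 lines give 30 bases around each match, and the third gives the 250 bases before the downstream start, which held no match. All run 5′ to 3′ on the plus strand of GRCm38.p6, with the half-site in capitals.
Pparg upstream start, chr6:115361104-115361133: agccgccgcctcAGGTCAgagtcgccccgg
Pparg middle start, chr6:115362319-115362348: ttttatataagggacgcgaggAGGTCAaga
Pparg downstream start, chr6:115421816-115422065: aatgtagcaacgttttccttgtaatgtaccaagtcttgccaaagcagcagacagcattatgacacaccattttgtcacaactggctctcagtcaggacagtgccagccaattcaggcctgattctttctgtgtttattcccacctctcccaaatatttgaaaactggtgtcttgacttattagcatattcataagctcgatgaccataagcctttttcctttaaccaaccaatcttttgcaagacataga

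The half-site was searched on both strands in the 250 bases before each RefSeq start, and 36 of the 39 receptors had an entry, with 50 starts in all. It was present before 8 of these starts (16.0%), in Pparg, Nr1d2, Rarg, Nr6a1, Nr5a2, Nr1h4 and Nr0b1, and before 14.02% of the 32851 starts of all genes. The direct repeat of 2 half-sites with a spacer of 4, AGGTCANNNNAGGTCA, the arrangement known for TH receptors, was found before 0 of the 50 and before 0.02% of all starts. The set of starts used here held no entry for Nr3c1, Nr5a1 and Hnf4g, so the called receptor Nr3c1 is outside these shares.

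The other PPARs were Ppard and Ppara, whose products regulate fatty acid oxidation. Ppard had 12.5, 14.6, 20.7 and 17.5 CPM in PTU and 19.2, 23.3, 26.2 and 26.4 CPM in PTU+TH, so the groups overlapped in PTU mouse 11 and PTU+TH mouse 13. Its log2 fold change was 0.54 (SE 0.16, 95% interval 0.20 to 0.89) and did not pass (edgeR adjusted p = 0.122). Mice 11, 12, 15 and 16 were higher than mice 9, 10, 13 and 14 of their own group. With these sets as a covariate Ppard passed (log2 fold change 0.56, edgeR adjusted p = 0.0185). The sets were noticed in these data and Ppard shows them, so this pass is no separate support. Ppard also passed with the excitatory neuron markers as a covariate (0.0495), whose values are given with Rorb. Only these 2 of 20 alternatives called it. In the 6 libraries with Y-linked reads its log2 fold change was 0.38 (edgeR adjusted p = 0.689). Ppara was near the limit of the test, with 0.55, 1.24, 0.45 and 0.79 CPM in PTU and 0.97, 0.45, 1.45 and 1.09 CPM in PTU+TH, and was not called (log2 fold change 0.37, 95% interval -0.60 to 1.34, edgeR adjusted p = 0.838).

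As Pparg and Ppard share the same libraries, their ratio does not depend on the scaling. It was 0.92 to 1.20 in PTU and 1.63 to 2.36 in PTU+TH, without overlap. The log2 ratio was higher by 0.90 in PTU+TH (exact permutation test over 70 arrangements, two-sided, p = 0.0286, the smallest possible, higher in 4 of 4 libraries). The permutation p was 0.0429 after Benjamini-Hochberg adjustment over 3 such pairs. Pparg alone already separated the groups, so this test is no separate support for its rise.

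In the steroid receptor subfamily, Nr3c1 (ENSMUSG00000024431.15, chromosome 18) encodes the glucocorticoid receptor, which binds corticosterone in mice. The PTU mice had 47.8, 50.0, 40.6 and 41.4 CPM, and the PTU+TH mice had 76.7, 84.2, 86.4 and 82.8 CPM. Each PTU+TH library was above each PTU library by a wide gap, and the spread within a group was small. The mean rose from 45.0 ± 4.66 to 82.5 ± 4.16 CPM (SD, n = 4 each), a log2 fold change of 0.88 (SE 0.09, 95% interval 0.67 to 1.08, edgeR adjusted p = 0.000236). It was called under all 20 alternatives, with log2 fold changes from 0.83 to 0.94, and was at 0.84 in the 6 libraries with Y-linked reads (edgeR adjusted p = 0.0192). Its gene body of 108.9 kb shares no base with another gene, and the reads per library numbered 821 to 2448.

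Nr3c2 encodes the mineralocorticoid receptor, which also binds corticosterone in the brain and does so more tightly than the glucocorticoid receptor. Its levels were 131.4, 142.0, 167.1 and 183.1 CPM in PTU and 135.6, 129.3, 155.7 and 165.1 CPM in PTU+TH. The groups overlapped, although PTU mice 11 and 12 were above all PTU+TH mice and PTU+TH mouse 14 was below all PTU mice. The log2 fold change of -0.09 (95% interval -0.35 to 0.17) did not pass (edgeR adjusted p = 0.856). The ratio of Nr3c1 to Nr3c2 was 0.23 to 0.36 in PTU and 0.50 to 0.65 in PTU+TH on the CPM scale. The log2 ratio was higher by 0.97 in PTU+TH (exact permutation test, two-sided, p = 0.0286, adjusted 0.0429, higher in 4 of 4 libraries). Nr3c1 alone already separated the groups, so this test, too, is no separate support for its rise. In the 6 libraries with Y-linked reads both ratios kept their size, with differences of 1.07 for Nr3c1 to Nr3c2 and 1.06 for Pparg to Ppard, where 0.0667 is the smallest p that 4 against 2 libraries allow.

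Pgr, the progesterone receptor gene, had 31.8, 35.6, 38.2 and 37.9 CPM in PTU and 39.1, 41.2, 41.2 and 44.4 CPM in PTU+TH. The groups did not overlap, but the distance was small (log2 fold change 0.21, SE 0.10) and the gene did not pass (edgeR adjusted p = 0.372). Esr1, the gene of oestrogen receptor alpha, was at 9.69, 7.64, 9.55 and 11.1 CPM in PTU and 10.3, 8.46, 11.7 and 9.99 CPM in PTU+TH (log2 fold change 0.09, edgeR adjusted p = 0.906). Esr2, the gene of oestrogen receptor beta, was low, at 0.40, 0.30, 1.09 and 0.83 CPM in PTU and 0.76, 1.00, 1.18 and 0.95 CPM in PTU+TH (log2 fold change 0.59, edgeR adjusted p = 0.667).

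Esrrb encodes an oestrogen-related receptor without a known natural hormone. It had 1.42, 0.68, 0.84 and 2.14 CPM in PTU and 2.61, 3.40, 1.68 and 3.81 CPM in PTU+TH. PTU+TH mouse 15 was lower than PTU mouse 12, and the other PTU+TH mice were above all PTU mice. Its log2 fold change of 1.18 was the second largest among the tested receptors, with a wide 95% interval of 0.36 to 1.99, and did not pass (edgeR adjusted p = 0.161). The edgeR adjusted p was 0.0447 with the endothelium markers and 0.0471 with the excitatory neuron markers as a covariate, and 0.424 in the 6 libraries with Y-linked reads. The counts behind Esrrb numbered 17 to 99 per library.

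**Figure D2:**
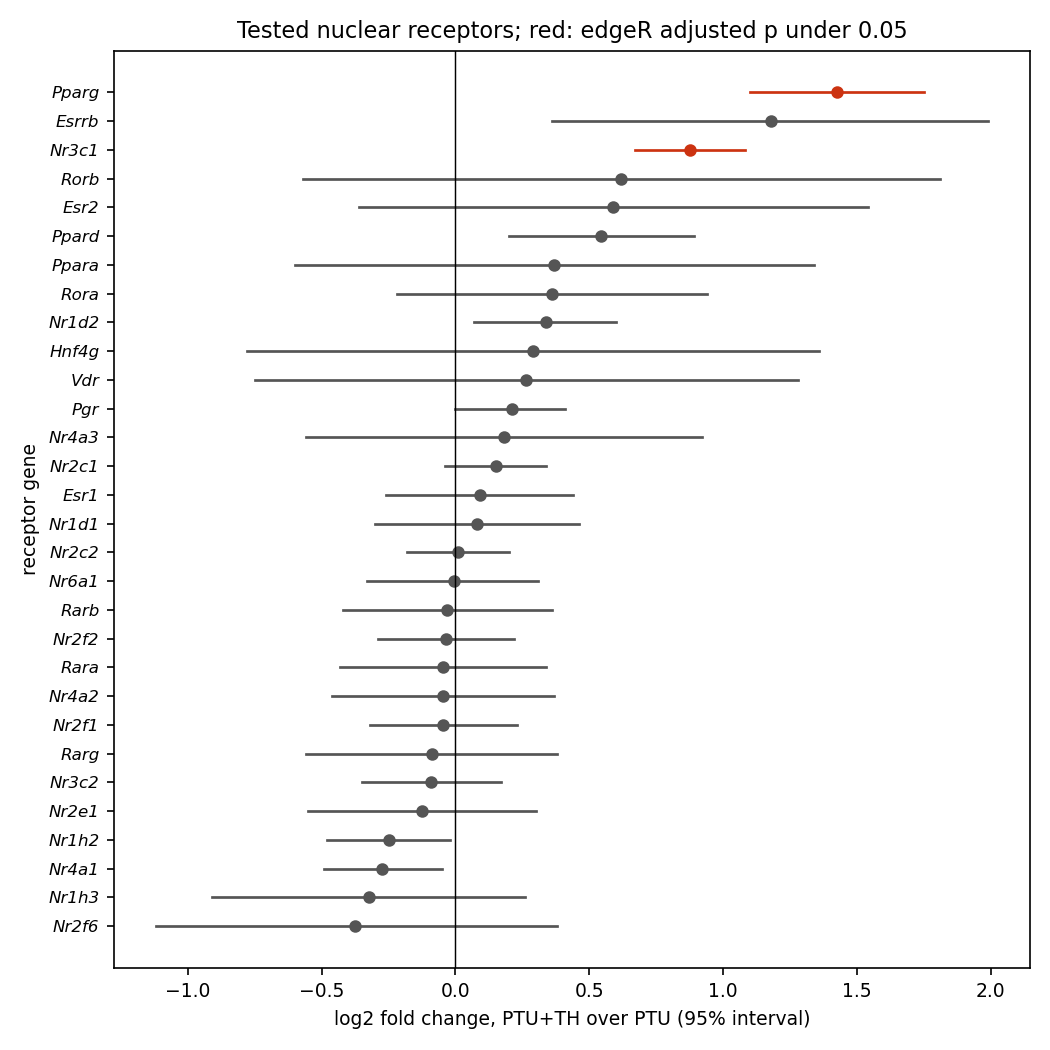
Log2 fold change, PTU+TH over PTU, of the 30 tested receptors (points) with 95% intervals (lines) from the edgeR fit of 4 against 4 libraries, sorted by size. Pparg (1.43) and Nr3c1 (0.88), in red, passed at an adjusted p under 0.05, and Esrrb (1.18), between them, did not.

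The REV-ERBs are repressors of the circadian clock that bind haem, and the RORs activate through the same DNA element. Nr1d1, which encodes REV-ERB alpha, had 15.2, 12.2, 8.66 and 9.71 CPM in PTU and 11.1, 12.1, 13.9 and 11.4 CPM in PTU+TH. The PTU+TH values lay within the range of the PTU values (log2 fold change 0.08, 95% interval -0.30 to 0.46, edgeR adjusted p = 0.928). Of its body, 85.5% is free of other genes, and the rest is shared with Thra, the TH receptor alpha gene on the opposite strand, where reads are taken as not counted. Nr1d2, which encodes REV-ERB beta, had 61.2, 57.6, 54.6 and 41.5 CPM in PTU and 70.2, 75, 68.9 and 57.6 CPM in PTU+TH. Of the PTU+TH mice, 3 were above all PTU mice, and mouse 16 was not (log2 fold change 0.34, SE 0.12, 95% interval 0.07 to 0.60, edgeR adjusted p = 0.232). The ratio of Nr1d2 to Nr1d1 overlapped between the groups, at 4.03 to 6.30 in PTU and 4.96 to 6.31 in PTU+TH (log2 difference 0.24, exact permutation test, two-sided, p = 0.2, adjusted 0.2).

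One half-site stood in the window of Nr1d2, 77 bases before its start, shown because Nr1d2 and Pparg are the receptors at an unadjusted p under 0.05 in edgeR that have a match (GRCm38.p6, minus strand, half-site in capitals).
Nr1d2, chr14:18239166-18239195: gattggaagaagAGGTCAggaccgctcgtt

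Rora, a gene of 734.5 kb, had more reads than any other receptor, at 320.3, 379.6, 762.3 and 603.8 CPM in PTU and 536.8, 516.0, 760.3 and 839.5 CPM in PTU+TH. Within each group the later pair of mice (11 and 12, 15 and 16) was higher than the earlier pair, and the groups overlapped. Its log2 fold change of 0.36 did not pass (SE 0.26, edgeR adjusted p = 0.665), was 0.41 with these pairs as a covariate (edgeR adjusted p = 0.0748) and was 0.03 in the 6 libraries with Y-linked reads. PTU+TH mice 15 and 16 are the 2 libraries with 0 Y-linked reads, so in that group the pairs and the Y-linked reads cannot be told apart.

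Rorb, known as a gene of layer 4 excitatory neurons, had 14.5, 17.9, 16.7 and 5.95 CPM in PTU and 20.2, 7.12, 41.3 and 16.4 CPM in PTU+TH. It was highest in PTU+TH mouse 15 and lowest in PTU mouse 12, and a 95% interval of -0.57 to 1.81 around a log2 fold change of 0.62 left its direction undetermined (edgeR adjusted p = 0.727). The summed excitatory neuron markers were at 104.1, 98.9, 54.1 and 36.4 CPM in PTU, against 93.7, 44.5, 117.9 and 59.9 CPM in PTU+TH. Mouse 15 was highest and mouse 12 lowest in that sum as well, and also in the sums for microglia and oligodendrocyte precursors. Mouse 15 was the highest for astrocytes and oligodendrocytes too. With this sum as a covariate the log2 fold change of Rorb was 0.32 (SE 0.28, edgeR adjusted p = 0.684).

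**Figure D3:**
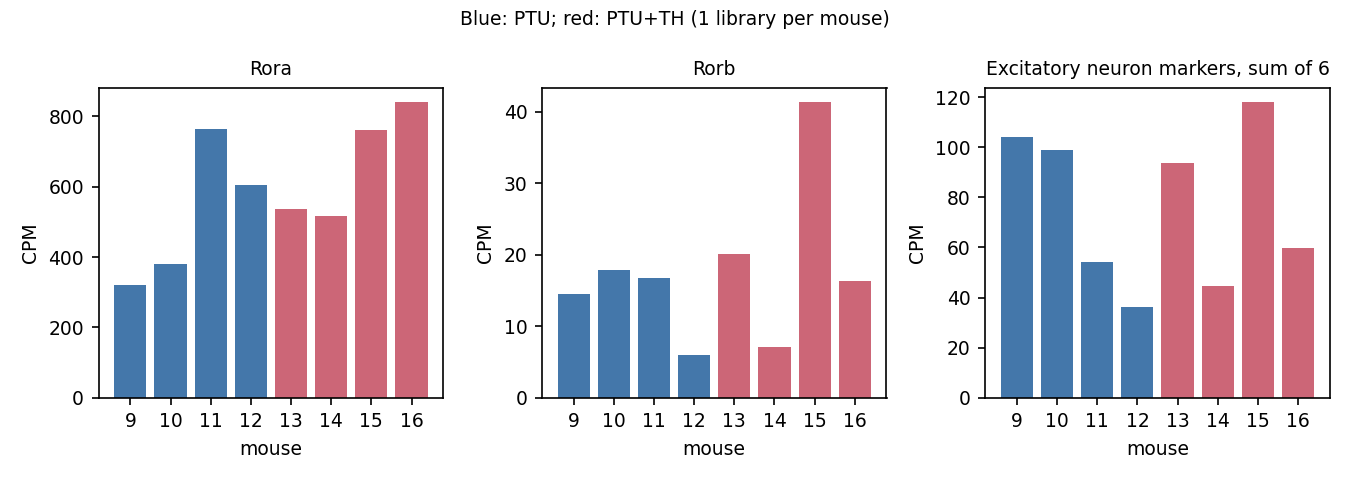
CPM of Rora, CPM of Rorb and the summed CPM of 6 excitatory neuron markers (vertical axes from 0) for each of the 8 mice, PTU in blue and PTU+TH in red. Rora is higher in mice 11, 12, 15 and 16 than in the other mice of their group, whereas Rorb and the marker sum share their highest mouse (15) and their lowest (12).

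The pattern of Rora by pair of mice was shared by other receptors. In 7 of the 30 tested receptors (23.3%) mice 11 and 12 were both above mice 9 and 10, and mice 15 and 16 both above mice 13 and 14. They were Rora, Rara, Rarb, Ppard, Nr2c2, Nr3c2 and Nr6a1. The reverse order held for 3 (10.0%), Nr1d2, Nr2e1 and Nr4a2. Over all genes tested the shares were 8.6% and 6.15%. The pairs were noticed in these data and are no label of the study, so these shares are a description. The summed markers of classes derived from the caudal ganglionic eminence had the same order, with 1 gene, Adarb2, making up most of the sum (a mean of 2768 CPM). The sum was 2439, 2833, 3795 and 4022 CPM in PTU and 2815, 2650, 3073 and 3622 CPM in PTU+TH.

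The liver X receptors sense oxysterols. Nr1h2, which encodes LXR beta, had 30.2, 29.8, 30.1 and 31.7 CPM in PTU and 28.8, 27.1, 22.3 and 24.2 CPM in PTU+TH. All PTU+TH mice were below all PTU mice, with a log2 fold change of -0.25 (SE 0.11, 95% interval -0.48 to -0.02) that did not pass (edgeR adjusted p = 0.33). Mice 15 and 16, which have 0 Y-linked reads, were the lowest, and in the 6 libraries with such reads the Nr1h2 log2 fold change was -0.12 (edgeR adjusted p = 0.895). Nr1h3, the gene of LXR alpha, had 3.53, 3.88, 3.71 and 2.97 CPM in PTU and 2.74, 1.55, 3.23 and 3.81 CPM in PTU+TH (log2 fold change -0.32, edgeR adjusted p = 0.712), and 63.4% of its body is free of other genes. Nr1h4, the bile acid receptor gene, had 0 to 21 reads and was not tested.

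The NR4A genes are induced by neuronal activity and encode receptors that act without a ligand. Nr4a1 had 38.1, 38.1, 48.0 and 39.1 CPM in PTU and 35.0, 34.9, 33.0 and 31.8 CPM in PTU+TH. All PTU+TH mice were below all PTU mice, with a log2 fold change of -0.28 (SE 0.10, 95% interval -0.49 to -0.05) that did not pass (edgeR adjusted p = 0.244) and was -0.19 without PTU mouse 11, the highest. Nr4a2 had 8.82, 7.98, 6.58 and 5.12 CPM in PTU and 7.88, 7.15, 6.27 and 6.33 CPM in PTU+TH (log2 fold change -0.05, edgeR adjusted p = 0.967). Nr4a3 had 5.36, 6.96, 5.59 and 3.32 CPM in PTU and 7.34, 2.48, 5.54 and 8.85 CPM in PTU+TH (log2 fold change 0.18, edgeR adjusted p = 0.914). The groups overlapped for both.

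The testicular receptors Nr2c1 and Nr2c2 are orphan receptors, without an established natural ligand. Nr2c1 had 32.3, 34.8, 33.1 and 33.9 CPM in PTU and 38, 35.4, 35.7 and 39.7 CPM in PTU+TH. The groups did not overlap, yet the log2 fold change was 0.15 (SE 0.09, edgeR adjusted p = 0.559). Nr2c2 had 110.6, 108.8, 124.0 and 130.7 CPM in PTU and 117.4, 114.1, 123.6 and 122.3 CPM in PTU+TH, with a 95% interval of -0.18 to 0.20 around a log2 fold change of 0.01, among the narrowest of the receptors. Nr6a1, the gene of germ cell nuclear factor, had 40.7, 51.2, 65.9 and 61.0 CPM in PTU and 47.5, 49.2, 55.3 and 65.6 CPM in PTU+TH (log2 fold change -0.01, 95% interval -0.33 to 0.31). Of its body, 82.4% is free of other genes.

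The retinoic acid receptor genes had no member with an unadjusted p under 0.05. Rarb averaged 52.0 ± 16.3 CPM in the PTU group and 50.9 ± 5.79 CPM in the PTU+TH group, Rara 11.0 ± 1.68 and 10.7 ± 2.36, and Rarg 3.86 ± 0.86 and 3.63 ± 0.41 (SD, n = 4 each). The wide PTU spread of Rarb came from mouse 11, at 76.0 CPM beside 40.4 to 48.1 CPM in the other PTU mice. Log2 fold changes were -0.03, -0.05 and -0.09 (edgeR adjusted p = 0.978, 0.965 and 0.938).

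The COUP-TFs are orphan receptors of interneuron lineages. Nr2f1 averaged 28.0 ± 2.03 CPM in the PTU group and 27.2 ± 4.54 CPM in the PTU+TH group, and Nr2f2 22.5 ± 3.15 and 22 ± 1.13 CPM (SD, n = 4 each). Their log2 fold changes were -0.05 (95% interval -0.32 to 0.23) and -0.03 (-0.29 to 0.22), with edgeR adjusted p = 0.949 and 0.962. Each shares part of its body with an antisense gene, A830082K12Rik for Nr2f1 and B130024G19Rik for Nr2f2. Of 6 markers of the classes from the caudal ganglionic eminence, 6 were tested and all had a log2 fold change below 0 (median -0.26), as did 8921 of the 17355 genes tested. An unadjusted p under 0.05 in edgeR was seen for 3 of the 6 (50%), beside 12.8% of all genes. The groups did not overlap for 2 (33.3%), both lower in PTU+TH, beside 8.71% of all genes. One of the 6 markers, Htr3a, a serotonin receptor gene, fell from 7.82 ± 2.38 to 3.64 ± 0.90 CPM (edgeR adjusted p = 0.0344), where 0.634% of all genes were called lower. The part of these markers in the receptor values was not tested. Nr2f6 was at 2.09 ± 1.02 and 1.63 ± 0.26 CPM, with 33.2% of its body free of other genes. Nr2e1, the gene of the neural stem cell receptor TLX, was at 7.53 ± 1.40 and 6.91 ± 1.46 CPM (log2 fold change -0.13, edgeR adjusted p = 0.886).

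Vdr, the vitamin D receptor gene, was at 0.65 ± 0.32 CPM in PTU and 0.78 ± 0.39 in PTU+TH, and Hnf4g at 0.54 ± 0.15 and 0.67 ± 0.36 (SD, n = 4 each), and neither was called (edgeR adjusted p = 0.908 and 0.901). The 9 receptors too low to test are known mainly from liver, gut, adrenal, gonad or retina. Nr5a1, the gene of steroidogenic factor 1, had 0 reads in all 8 libraries, which allows a level of up to 0.103 to 0.148 CPM per library for a floor of 3 reads, covering counting error only. Hnf4a had 1 read in 1 library, Nr2e3 up to 3 and Nr1i3 up to 4. Nr1i2, Nr0b1, Nr0b2 and Nr5a2 reached 8, 10, 11 and 17 reads, and Nr1h4 reached 21. Hnf4a, Nr2e3 and Nr1i3 have 47.2%, 47.6% and 30.3% of their bodies free of other genes, which lowers what could be counted.

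Per kb of free gene body, Nr1h2 was the highest receptor, at 6.46 CPM per kb over the 8 libraries, followed by Nr2f1 (3.05), Nr1d1 (1.86), Nr4a1 (1.82), Nr1d2 (1.73), Nr2f2 (1.72) and Nr2c2 (1.56). Means from Nr1d1 to Nr2f2 differed by less than their SDs over the 8 libraries. Rora was first in CPM but the eighth per kb of free body (0.82). Nr3c1 was at 0.41 CPM per kb in PTU and 0.76 in PTU+TH, and Nr3c2 at 0.45 and 0.43. Pparg was at 0.15 CPM per kb in PTU and 0.40 in PTU+TH, beside 0.24 and 0.35 for Ppard. Over the 8 libraries, the order within these pairs and among all receptors depended on the length used. Per kb of free body, Nr3c1 (0.59) was above Nr3c2 (0.44), and Ppard (0.29) was just above Pparg (0.27). Per kb of exon, Nr3c2 (23.4 CPM per kb) was above Nr3c1 (8.29), and Pparg (10.7) was above Ppard (2.67). Rora was the highest receptor per kb of exon (45.1), with Nr1h2 at 8.35 and Nr2f1 at 5.4. Exons make up from 1.36% (Rarb) to 77.3% (Nr1h2) of a receptor's body, so these values mix spliced and unspliced RNA in unequal parts.

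**Figure D4:**
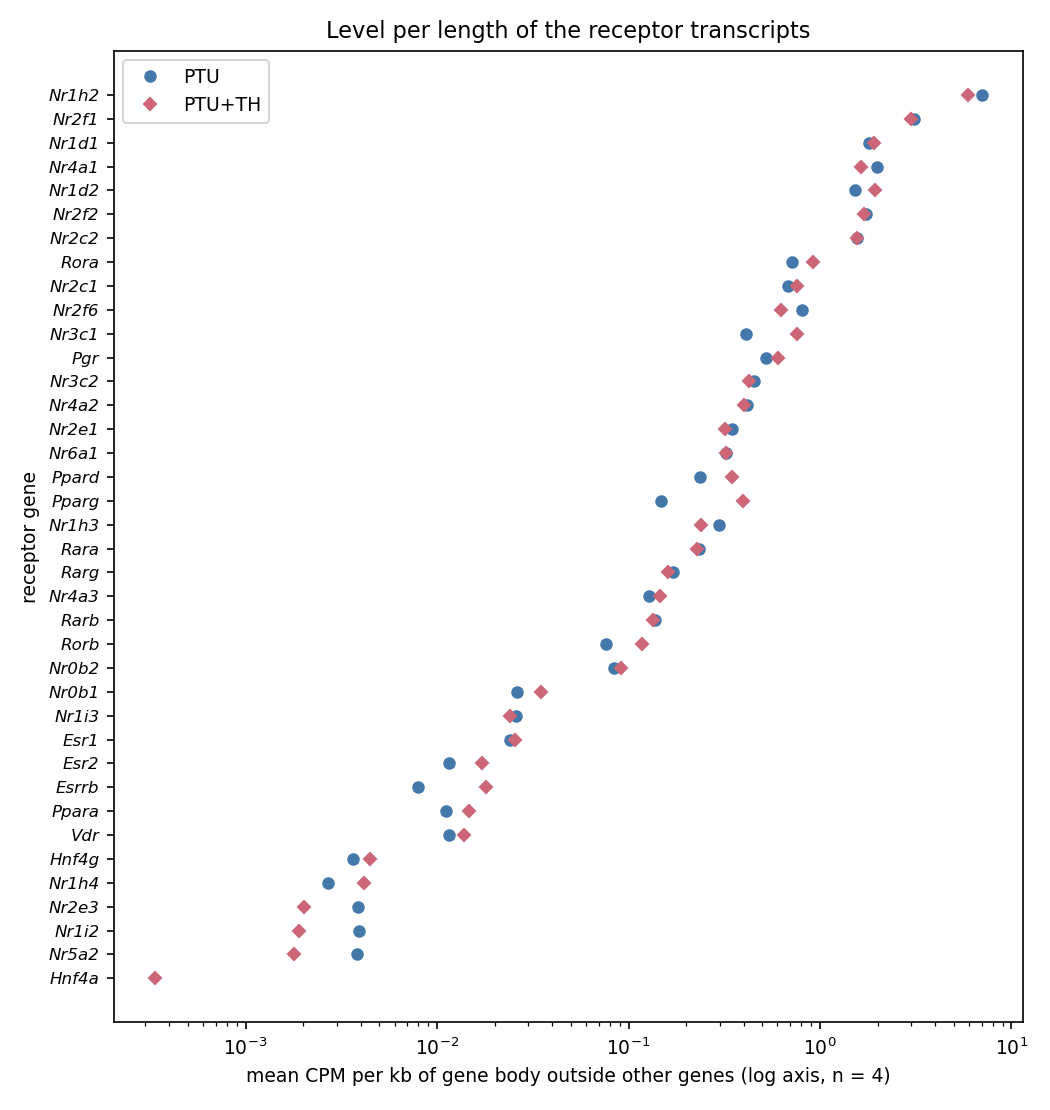
Mean CPM per kb of gene body outside other genes (log axis) of the 38 receptors with reads, PTU as circles and PTU+TH as diamonds (n = 4 each), sorted by the mean of all libraries. Nr1h2 is highest at 6.46, and the markers of Pparg (0.15 and 0.40) and Nr3c1 (0.41 and 0.76) stand apart. A group with 0 reads has no marker.

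What the 28 receptors that did not pass leave possible was read from their 95% intervals. For 21 of them the interval lay within a factor of 2 in either direction. It reached beyond a factor of 2 for the other 7, which were Ppara, Rorb, Vdr, Hnf4g, Nr2f6, Esr2 and Esrrb. The filter was applied before TMM scaling, at 0.423 CPM of the unscaled total. Of the tested receptors, 26 reached it in all 8 libraries on that scale, and Ppara, Vdr, Hnf4g and Esr2 did not.

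Receptors act through coregulators. Of 15 coregulator genes, 15 were tested, 3 were called higher and 0 lower (20.0%, median log2 fold change 0.05), beside 2.12% of all genes. Ncoa1, which encodes the coactivator SRC-1, rose from 252.5 ± 14.3 to 368.5 ± 25.6 CPM, by 0.55 in log2 (n = 4 each, SD; edgeR adjusted p = 0.0139). Its call was lost when PTU+TH mouse 16 was left out (0.0547), with a log2 fold change of 0.50. Ncoa3, which encodes SRC-3, rose from 107.1 ± 8.58 to 140.2 ± 7.97 CPM, by 0.39 in log2 (edgeR adjusted p = 0.0392), but was called in 12 of 20 alternatives. Of 8 fits with a mouse removed, 7 did not call it (up to 0.125), and the exception was the fit without PTU mouse 9. The log2 fold change in these 8 fits was 0.35 to 0.43. Ppargc1a, the gene of the coactivator PGC-1 alpha, which binds PPAR gamma, rose by a log2 fold change of 0.51 (edgeR adjusted p = 0.0407) and was called in 13 of 20. Its call was lost without any 1 of mice 10, 12, 13, 14, 15 and 16 (up to 0.141), and the log2 fold change in the fits without a mouse was 0.44 to 0.62. In the 6 libraries with Y-linked reads none of Ncoa1, Ncoa3 and Ppargc1a passed (edgeR adjusted p = 0.151, 0.258 and 0.384), with log2 fold changes of 0.52, 0.39 and 0.42.

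Response genes of the receptors are described next, to be read beside the 2.12% of all genes that passed and the 12.8% at an unadjusted p under 0.05 in edgeR. Of 12 genes known to respond to glucocorticoids, 11 were tested and 0 passed (median log2 fold change 0.01, 2 at an unadjusted p under 0.05 in edgeR). Sgk1, a kinase gene, was at 164.2 ± 14.2 CPM in PTU and 207.2 ± 14.0 in PTU+TH, a log2 difference of 0.34 (n = 4 each, SD; edgeR adjusted p = 0.111), and the groups did not overlap. It passed in 3 of 20 alternatives, at an adjusted p of 0.0235 with DESeq2 and, in edgeR, 0.0355 with the excitatory neuron covariate and 0.0318 with the pairs of mice. Mt1, a metallothionein gene, had a log2 fold change of 0.53 (edgeR adjusted p = 0.377), and Fkbp5, a chaperone gene and a standard readout of the receptor, had -0.17 (edgeR adjusted p = 0.568; named after its value was seen).

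Of 11 PPAR target genes, 10 were tested and 0 passed (median log2 fold change 0.06, 1 at an unadjusted p under 0.05 in edgeR). Cpt2, an enzyme gene of fatty acid import into mitochondria, differed by 0.52 in log2 (edgeR adjusted p = 0.728). Of 10 LXR target genes, 10 were tested and 0 passed (median 0.11, 1 at an unadjusted p under 0.05 in edgeR), with Mylip and Scd1 at 0.76 each (edgeR adjusted p = 0.353 and 0.588).

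Of 12 genes of retinoic acid response and handling, 10 were tested and 0 passed (median log2 fold change -0.02, 4 at an unadjusted p under 0.05 in edgeR, or 40% beside 12.8% of all genes). Cyp26b1, which degrades retinoic acid, was at 0.53 ± 0.24 CPM in the PTU group and 1.36 ± 0.35 in the PTU+TH group, a log2 difference of 1.35 (n = 4 each, SD; edgeR adjusted p = 0.129), without overlap of the groups, and Tgm2 had 1.21 (edgeR adjusted p = 0.326).

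Of 12 circadian clock genes, 11 were tested, 2 were called higher and 0 lower (18.2%, median 0.09), beside 2.12% of all genes. Arntl, which encodes the clock activator BMAL1 and is a known target of the REV-ERBs and RORs, rose by a log2 fold change of 0.47, and Dbp, a clock output gene, by 1.09 (edgeR adjusted p = 0.0109 and 0.00639). Both were called in 19 of 20 alternatives. In the 6 libraries with Y-linked reads they did not pass (0.0829 and 0.102), with log2 fold changes of 0.50 for Arntl and 1.14 for Dbp. Per3, at 0 throughout, is nested in another gene. Of 12 immediate early genes, which neuronal activity induces as it does the NR4A genes, 11 were tested and 0 passed (median 0.12, 1 at an unadjusted p under 0.05 in edgeR), with Egr2 at -1.0 and Arc at 0.60 (edgeR adjusted p = 0.243 and 0.439).

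**Figure D5:**
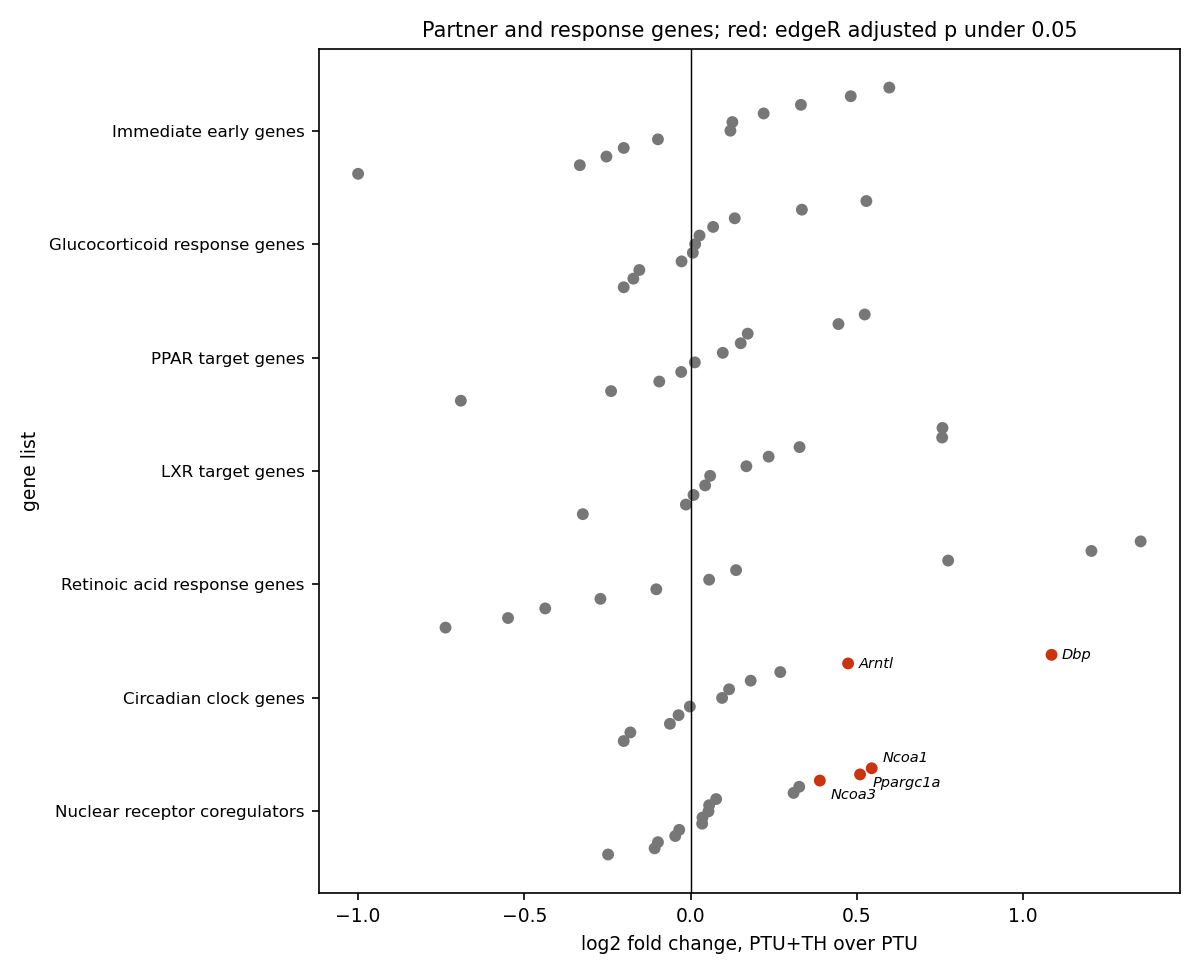
Log2 fold change, PTU+TH over PTU, of the tested genes of 7 lists of partner and response genes, 1 point per gene, with genes that passed at an adjusted p under 0.05 in red and named. Calls are present for coregulators (Ncoa1, Ncoa3, Ppargc1a) and clock genes (Arntl, Dbp), and the other 5 lists have 0.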

How the data were processed

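The authors deposited raw read counts per gene symbol for each of the 8 libraries, in whole numbers. Per the labels' protocols, nuclear RNA was made into cDNA with SMART-Seq v4 chemistry and Nextera XT libraries and read single-end on a NextSeq. The submitters' processing notes name Bowtie2 2.5.3 and the builds mm10 and GRCm38, with no further detail. The counting program, the use of strand and the annotation are not given in the sources used here. The 55341 symbols were the same as those of GENCODE M21 (GRCm38), which gave positions and lengths. Promoter windows came from RefSeq (GRCm38.p6).

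Group differences in counts were fitted in edgeR 4.0.16 (R 4.3.3), with filterByExpr (at least 10 reads at the median library total, or 0.423 CPM, in enough libraries), TMM scaling, a robust quasi-likelihood fit with group as the only term, and Benjamini-Hochberg adjustment over 17355 genes. CPM were computed from the deposited counts with TMM-scaled totals. Intervals use the fit's standard error and degrees of freedom. Library totals of 21762810 to 29084071 limit the precision of genes near the filter. DESeq2 1.42.0 and limma 3.58.1 (voom) were alternatives, with other scalings, filters, covariates, thinning, 6 libraries and leaving out each mouse. The covariate for pairs of mice was added after seeing the data. Scripts were tested on simulated counts. The members and lists were chosen with earlier results of these data known. Values in every library were given for the called receptors, those with an unadjusted p under 0.05 or without overlap of the groups, the 6 highest in CPM, and their subfamily partners, with the other tested receptors by mean, SD and fold change or by ranges. From each list the text names the called genes and the 2 largest changes. Fkbp5 and Htr3a were named outside this rule, and a gene that the rule names is not reported here. The labels give each library its own mouse.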

Additional observations from a re-analysis of the deposited data

Results flagged for a closer look

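One receptor had a library far from the other 3 of its group. Nr4a1 in PTU mouse 11 was at 48.0 CPM beside 38.1 to 39.1 CPM in the other PTU mice, and the gap took 0.9 of the range of the 4 values. This was 1 of 60 sets of 4 values examined, where chance gives about 5%, or 3 sets. Without this mouse the log2 fold change of Nr4a1 was -0.19 (edgeR adjusted p = 0.48).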

How the results depend on the processing

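No paired analysis was possible because no mouse number occurs in both groups. Pparg and Nr3c1 were called under all 20 alternatives, and each fit that left out a mouse called 2 receptors. The number of receptors called was 4 with the excitatory neuron covariate (Ppard and Esrrb beside them) and 3 with the endothelium covariate or with the pairs of mice. Against 368 genes called in all (258 higher, 110 lower), the count was 756 (464 and 292) with DESeq2, 58 (52 and 6) in the 6 libraries with Y-linked reads, 574 (385 and 189) with the excitatory neuron covariate, 642 (428 and 214) with the pairs of mice, and from 182 (143 and 39, without mouse 15) to 499 (339 and 160, without mouse 9) when a mouse was left out. The 6 libraries and the fits without a mouse hold fewer samples, and the cause of the other shifts was not tested. Other scalings shifted the median gene by -0.021 to 0.013.

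Directions changed only for genes that did not pass. In the 6 libraries the log2 fold change became -0.112 for Ppara, -0.019 for Rorb, -0.033 for Nr2c2, 0.058 for Nr2e1, -0.017 for Esr1, 0.076 for Nr4a2 and -0.122 for Nr4a3. With limma voom it was 0.019 for Rarb and 0.008 for Nr6a1, with the excitatory neuron covariate 0.008 for Rarb and 0.035 for Nr6a1, with library totals only -0.005 for Nr2c2, with upper quartile scaling 0.006 for Nr6a1, and with the pairs of mice 0.002 for Nr6a1. Leaving out a mouse gave ranges across 0 for Rara (-0.194 to 0.06), Rarb (-0.128 to 0.21), Rarg (-0.194 to 0.054), Vdr (-0.15 to 0.622), Nr1d1 (-0.029 to 0.254), Nr2c2 (-0.024 to 0.06), Nr2e1 (-0.271 to 0.002), Nr2f1 (-0.121 to 0.047), Nr2f2 (-0.084 to 0.068), Nr4a2 (-0.174 to 0.079), Nr4a3 (-0.06 to 0.445) and Nr6a1 (-0.121 to 0.094).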
